A study of Homo sapiens with 6 samples.

Results

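The account covers 10 genes that are commonly read as mesenchymal markers and that encode parts of the cytoskeleton, the extracellular matrix or the cell surface. They were VIM, FN1, SPARC, CD44, TAGLN, CALD1, MYL9, TPM1, TPM2 and ACTA2, and they were taken by name from the 58733 gene rows of the count table. All 10 were found and all 10 were among the 16081 genes with enough reads to be tested. Collagens and integrins were left out by choice.

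The measurements came from RNA sequencing of polyadenylated RNA of MDA-MB-231, a human triple-negative breast cancer line that grows with a spindle-like, mesenchymal shape. One condition was 72 h in 2 µM Azeliragon, a drug that blocks the receptor RAGE, and the other was its vehicle DMSO for the same time, with 3 libraries each, lettered a, b and c. Both conditions shared a culture medium with serum, and the cells in DMSO served as the baseline. RAGE and the transcription factor SNAIL are in the title of the series, and the comparison addresses whether mesenchymal markers differed after the inhibitor was applied.

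Cells with mesenchymal features carry vimentin filaments, deposit fibronectin and bind hyaluronan through CD44. They also build stress fibres, contractile bundles of actin and myosin II that tropomyosins, transgelin and caldesmon coat or regulate. Several of these contractile genes are classic targets of the transcription factor SRF and its MRTF cofactors, which respond to the pool of free actin.

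Each library held between 41455979 and 44313584 counts in all. The DMSO libraries differed more among themselves than the Azeliragon libraries, with a biological coefficient of variation of 5.64% with Azeliragon and 12.5% in DMSO. On the first principal component, which held 37.6% of the variance, the Azeliragon libraries scored between -23.0 and -19.0, whereas DMSO a scored -0.23 and DMSO b and c scored 30.1 and 33.7. DMSO a thus stood apart from the other DMSO libraries, and results that rest on it are given with and without it. Separate cultures for the 3 libraries of a condition are not stated, so the p-values reflect library-to-library spread alone, and that spread may be technical.

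SNAI1, which encodes SNAIL, averaged 0.43 ± 0.19 CPM (counts scaled to a common library total, with TMM factors) with Azeliragon and 1.88 ± 0.25 CPM in DMSO (SD, n = 3 each), and it fell (log2 fold change -2.12, edgeR adjusted p = 0.00236). With 1 read at 0.0226 to 0.0241 CPM, the level of SNAI1 with Azeliragon rested on few reads. AGER, the gene of RAGE, averaged 6.15 ± 0.16 CPM with Azeliragon and 6.74 ± 0.69 CPM in DMSO, and it did not pass the test (edgeR adjusted p = 0.594).

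Of the 10 markers, MYL9 and TAGLN fell with Azeliragon, none rose, and 8 did not pass the threshold of an adjusted p of 0.05 in edgeR's quasi-likelihood test. Across all tested genes 6.27% passed in either direction and 3.53% passed as lower with Azeliragon. With 10 genes, a count of 2 is too small to set the markers apart from that background. The median log2 fold change of the 10 was -0.11, beside -0.00 over all tested genes. MYL9 and TAGLN both fell by less than 1.5-fold. In bulk RNA, fewer cells that express a gene and less RNA of it per cell cannot be told apart.

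**Figure D1:**
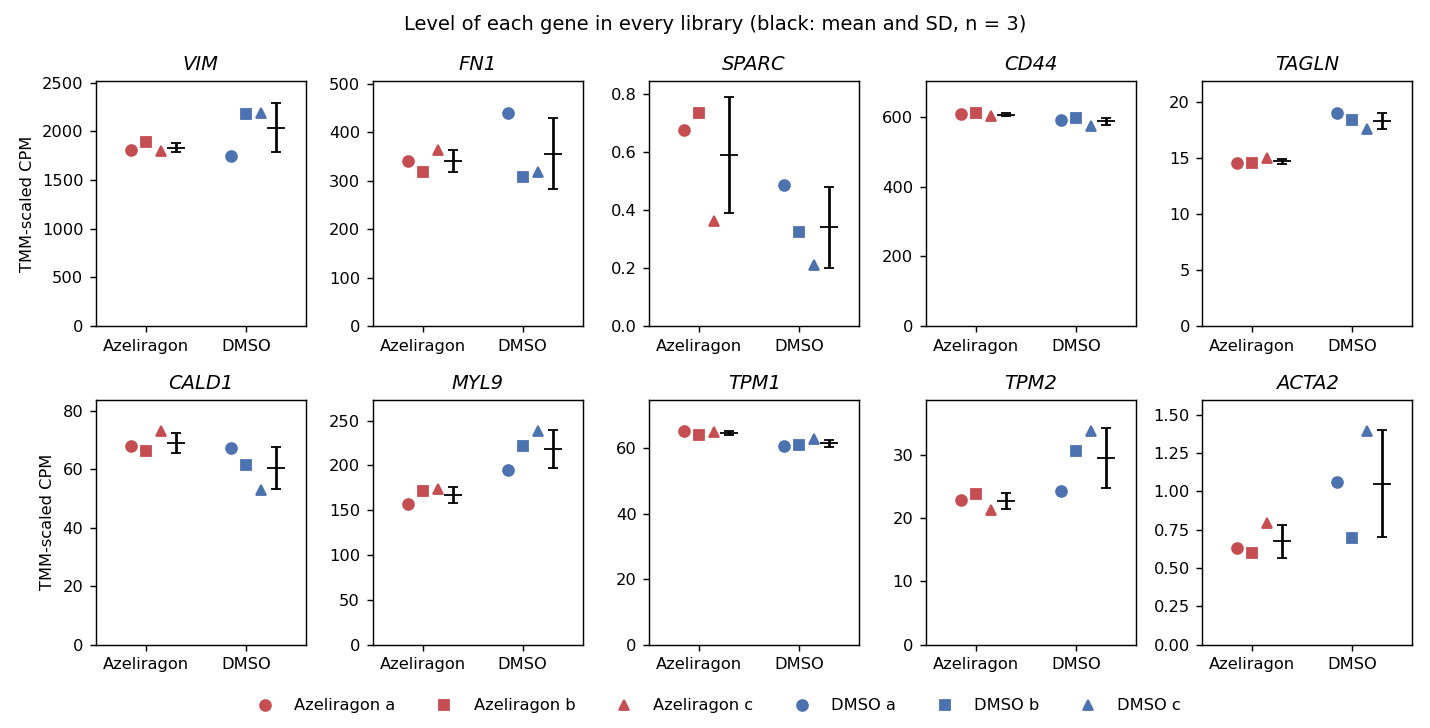
Level of each of the 10 genes in TMM-scaled CPM (vertical axes, each starting at 0) in the 3 Azeliragon libraries (red, left) and the 3 DMSO libraries (blue, right), with the mean and SD in black. MYL9 and TAGLN lie lower in every Azeliragon library than in any DMSO library, and DMSO a lies beside the Azeliragon libraries for VIM and TPM2.

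The plot of levels by library shows the values behind every comparison that follows. The groups did not overlap for 5 of the 10 genes. MYL9, TAGLN and TPM2 were lower in every Azeliragon library, and CD44 and TPM1 were higher in every Azeliragon library. Over all tested genes 25.3% had groups that did not overlap.

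Levels between genes were compared per kilobase of exon, the union of all exons of a gene. VIM stood first in both conditions, at 356 ± 8.91 CPM per kb with Azeliragon and 395 ± 49.0 CPM per kb in DMSO. CD44 at 60.6 ± 0.48 and MYL9 at 59.3 ± 3.20 CPM per kb followed with Azeliragon, a gap smaller than the SD of MYL9. In DMSO their order was the other way round, with 58.7 ± 1.12 for CD44 and 77.5 ± 7.61 for MYL9. FN1 came next at 19.7 ± 1.28 CPM per kb with Azeliragon and 20.5 ± 4.22 in DMSO. CALD1 and TPM2 were neighbours within 1 SD with Azeliragon, at 7.01 ± 0.35 and 6.96 ± 0.39 CPM per kb, and in DMSO they had 6.14 ± 0.74 and 9.07 ± 1.47. TPM1 had 5.02 ± 0.05 with Azeliragon and 4.77 ± 0.08 in DMSO, and TAGLN had 3.75 ± 0.06 with Azeliragon and 4.68 ± 0.18 in DMSO, so these neighbours were apart with Azeliragon and within 1 SD of each other in DMSO. ACTA2 at 0.226 ± 0.036 and SPARC at 0.122 ± 0.041 CPM per kb with Azeliragon closed the order, with 0.353 ± 0.117 and 0.0704 ± 0.0290 in DMSO. The choice of length matters for the order: per kilobase of the longest coding transcript CD44 stood at 106 and MYL9 at 59.3 with Azeliragon, and CD44 at 102 and MYL9 at 77.5 in DMSO, so CD44 was then above MYL9 in both conditions.

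VIM encodes vimentin, the intermediate filament protein of mesenchymal cells, and lies on chromosome 10 (GRCh38, chr10:17228259-17237593, plus strand). It was the 40th most abundant of the tested genes by mean CPM. VIM had 1812, 1887 and 1803 CPM in Azeliragon a, b and c, against 1745, 2175 and 2189 CPM in DMSO a, b and c. DMSO a lay below all Azeliragon libraries while DMSO b and c lay above them, so the groups overlapped. The log2 fold change was -0.15 (SE 0.08, 95% interval -0.33 to 0.03), and VIM did not pass the test (edgeR adjusted p = 0.337). Without DMSO a the log2 fold change was -0.25 and it passed (edgeR adjusted p = 8.35e-05). VIM shares 641 exon bases with VIM-AS1 on the other strand, which averaged 3.14 CPM with Azeliragon and 3.55 CPM in DMSO, far below VIM itself.

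Among the other intermediate filament genes, 3 of the 7 tested fell, none rose and 4 did not pass, while 6 further genes had too few reads to be tested. NES, which encodes nestin, a filament protein of progenitor cells, averaged 25.1 ± 1.59 CPM with Azeliragon and 38.1 ± 3.17 CPM in DMSO and fell (log2 fold change -0.61, edgeR adjusted p = 0.00154). GFAP, the filament gene of glial cells, averaged 6.39 ± 0.34 CPM with Azeliragon and 9.47 ± 0.44 CPM in DMSO and fell by 0.57 on the log2 scale. LMNB1, which encodes lamin B1 of the nuclear lamina, fell by 0.25 on the log2 scale. The lamin genes LMNA at 1082 ± 27.2 CPM with Azeliragon and 1181 ± 32.1 CPM in DMSO, and LMNB2 at 1065 ± 20.9 CPM with Azeliragon and 1004 ± 38.9 CPM in DMSO, did not pass. PLEC, at 2956 ± 169 CPM with Azeliragon and 2786 ± 758 CPM in DMSO, did not pass either (log2 fold change 0.09). The adjusted p of GFAP was 0.0515 without Azeliragon b, and that of LMNB1 reached 0.205 when DMSO b or any Azeliragon library was left out (edgeR). Without DMSO a 1 gene of the list rose and 4 fell among 8 tested, in a fit that called 23.7% of all genes, and 1 fell without Azeliragon b. With DMSO b, Azeliragon a or Azeliragon c left out, 2 fell. The fits without DMSO b or any one Azeliragon library called 2.68% to 3.01% of all genes. LMNB2 shares 257 exon bases with TIMM13 on the same strand, and its counts are uncertain.

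FN1 encodes fibronectin, the matrix glycoprotein that integrins bind, and lies at chr2:215360440-215436172 on the minus strand. It had 341, 319 and 363 CPM in Azeliragon a, b and c, against 440, 308 and 318 CPM in DMSO a, b and c. The Azeliragon values lay inside the DMSO range, in which DMSO a was 40.3% above the mean of DMSO b and c. Its log2 fold change was -0.06 (SE 0.12, 95% interval -0.31 to 0.19; edgeR adjusted p = 0.818). Without DMSO a it was 0.12, of the opposite sign, and still did not pass (edgeR adjusted p = 0.101).

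SPARC encodes osteonectin, a secreted protein that binds collagen and modulates how cells hold on to the matrix, and lies at chr5:151661096-151687165 on the minus strand. It was near the limit of detection, with 29, 32 and 15 reads in Azeliragon a, b and c and 22, 14 and 9 reads in DMSO a, b and c. These groups overlapped. Azeliragon libraries held 62.8% of the SPARC reads (95% exact Clopper-Pearson interval 53.6 to 71.4%, counting error only), and 49.3% of reads would fall to them without a difference. Between libraries the log2 fold change was 0.79 (SE 0.45, 95% interval -0.20 to 1.78; edgeR adjusted p = 0.362), a range too wide to place a difference at this depth. DMSO a was 82.9% above the mean of DMSO b and c. Without DMSO a the log2 fold change was 1.14 and SPARC still did not pass (edgeR adjusted p = 0.142).

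The other matrix glycoprotein genes were tested for 16 of 31 listed, of which 5 fell, 1 rose and 10 did not pass. EDIL3, an integrin-binding matrix protein, averaged 16.8 ± 0.42 CPM with Azeliragon and 30.4 ± 2.11 CPM in DMSO and fell (log2 fold change -0.85, edgeR adjusted p = 0.00011). LOXL1, which cross-links elastin, averaged 42.3 ± 2.87 CPM with Azeliragon and 64.2 ± 3.96 CPM in DMSO and fell by 0.60 on the log2 scale. LOXL1 shares 335 exon bases with LOXL1-AS1 and THBS3 shares 146 with MTX1, on the other strand, so their reads are less certain. EFEMP1, a fibulin, fell by 0.58, and the thrombospondin genes THBS3 and THBS2 fell by 0.49 and 0.45. CYR61, an integrin-binding matricellular gene named here after its values were seen, was the one that rose, at 2856 ± 101 CPM with Azeliragon and 2322 ± 46.5 CPM in DMSO (log2 fold change 0.30, edgeR adjusted p = 0.00817). Its relative CTGF, at 845 ± 42.0 CPM with Azeliragon and 739 ± 20.2 CPM in DMSO, and THBS1, at 1399.6 ± 56.4 CPM with Azeliragon and 1608 ± 194 CPM in DMSO, did not pass. The calls of THBS3 and THBS2 did not hold without DMSO b or any one Azeliragon library (edgeR adjusted p up to 0.18 for THBS3 and 0.127 for THBS2), nor did that of CYR61 without DMSO b, Azeliragon b or c (up to 0.0985). Without DMSO a 4 genes of the list rose and 6 fell among 17 tested, in a fit that called 23.7% of all genes. Without DMSO b, Azeliragon b or Azeliragon c none rose and 3 fell, and without Azeliragon a 1 rose and 3 fell. These fits called 2.68% to 3.01% of all genes.

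CD44 encodes the main cell-surface receptor for hyaluronan, a long sugar chain of the matrix, and lies at chr11:35138870-35232402 on the plus strand. It had 607, 611 and 602 CPM in Azeliragon a, b and c, against 591, 596 and 574 CPM in DMSO a, b and c. The groups did not overlap, but their means were close, and the log2 fold change was 0.05 (SE 0.06, 95% interval -0.07 to 0.17; edgeR adjusted p = 0.682). On a linear scale the interval ran from 0.95 to 1.12 times the DMSO level. Counts per gene hold no information on the standard and variant CD44 isoforms.

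Genes that make, remove or bind hyaluronan, or that tie CD44 to the cytoskeleton or control its splicing, were tested for 15 of 17. Of these 3 rose, 1 fell and 11 did not pass. HAS2, a hyaluronan synthase, averaged 12.9 ± 0.20 CPM with Azeliragon and 8.77 ± 0.32 CPM in DMSO and rose (log2 fold change 0.56, edgeR adjusted p = 0.00383). CEMIP, which is needed for hyaluronan breakdown, averaged 9.75 ± 1.35 CPM with Azeliragon and 20.7 ± 4.17 CPM in DMSO and fell (log2 fold change -1.09, edgeR adjusted p = 0.000849). SRGN, the proteoglycan serglycin, which can bind CD44, averaged 41.4 ± 0.44 CPM with Azeliragon and 27.4 ± 2.01 CPM in DMSO and rose by 0.59 on the log2 scale. EZR, the linker ezrin, rose by 0.23, a call that did not hold without DMSO b or any one Azeliragon library (edgeR adjusted p up to 0.158). Its relative MSN averaged 1363 ± 25.0 CPM with Azeliragon and 1142 ± 108 CPM in DMSO and stayed just outside the threshold (edgeR adjusted p = 0.0552), and HYAL2, a hyaluronidase, did not pass. CEMIP shares 224 exon bases with MESD on the other strand and HYAL2 shares 509 with TUSC2 on its own, so these counts are uncertain.

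MYL9 encodes a regulatory light chain of myosin II, whose phosphorylation switches on contraction, and lies at chr20:36541484-36551447 on the plus strand. Its closest relatives, MYL12A and MYL12B, encode light chains of the same role. Because reads from such relatives can be assigned to the wrong gene, 120 coding bases of each are shown, with capitals at the 21 positions that are not identical in all 3 (GENCODE 29 transcripts on GRCh38, 5′ to 3′, bases 61 to 180 of the coding sequence of MYL9 and MYL12B and 58 to 177 of MYL12A).
MYL9: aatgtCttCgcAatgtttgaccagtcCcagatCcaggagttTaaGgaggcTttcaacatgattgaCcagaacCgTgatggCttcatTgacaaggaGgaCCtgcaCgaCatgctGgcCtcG
MYL12A: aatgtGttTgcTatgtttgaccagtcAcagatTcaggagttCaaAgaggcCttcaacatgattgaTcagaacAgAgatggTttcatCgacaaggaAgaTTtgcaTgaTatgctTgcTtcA
MYL12B: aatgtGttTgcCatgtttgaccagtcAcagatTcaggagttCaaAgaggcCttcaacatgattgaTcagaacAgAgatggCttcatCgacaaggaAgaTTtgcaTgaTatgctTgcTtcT
In this window MYL9 differed from MYL12A at 21 bases and from MYL12B at 20, whereas MYL12A and MYL12B differed at 3. Over the whole coding sequence MYL9 was 78.6% identical to MYL12A and 80.5% to MYL12B, and the pair MYL12A and MYL12B was 95.2% identical. The counts of MYL12A and MYL12B, which share longer runs of identical bases, are therefore less certain than that of MYL9.

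MYL9 had 157, 171 and 174 CPM in Azeliragon a, b and c, against 196, 222 and 238 CPM in DMSO a, b and c. Every Azeliragon library was lower than every DMSO library, and DMSO a was the lowest DMSO library. The means were 167 ± 9.03 CPM with Azeliragon and 219 ± 21.5 CPM in DMSO (SD, n = 3 each), a log2 fold change of -0.39 (SE 0.08, 95% interval -0.56 to -0.22; edgeR adjusted p = 0.0113). MYL9 was therefore 1.31-fold lower with Azeliragon. With 1 library left out at a time the log2 fold change lay between -0.46 and -0.32. The call did not hold without Azeliragon a, b or c (edgeR adjusted p = 0.105, 0.0562 and 0.053) or without DMSO b (0.0725), and it held without DMSO a (6.75e-07) and without DMSO c (0.0228).

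Within the light chain family MYL9 held 14.7, 16.2 and 16.7% of the counts per kb in Azeliragon a, b and c, against 19.8, 19.4 and 19.3% in DMSO a, b and c. The groups did not overlap, and the 3 DMSO libraries, DMSO a included, were close together. The mean share was 15.9 ± 1.04% with Azeliragon and 19.5 ± 0.26% in DMSO (SD, n = 3 each), a difference of -3.61 percentage points, with an exact two-sided permutation p of 0.1, the smallest that 3 against 3 libraries allow. MYL12B held 63.5 ± 1.01% with Azeliragon and 59.7 ± 0.34% in DMSO. In CPM neither relative passed the test: MYL12A averaged 249.7 ± 4.58 CPM with Azeliragon and 268 ± 29.9 CPM in DMSO, and MYL12B averaged 458 ± 13.1 CPM with Azeliragon and 459 ± 52.2 CPM in DMSO.

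The myosin list held no called gene among 16 tested, and 1 more had too few reads. By edgeR the heavy chain MYH9, at 2792 ± 98.5 CPM with Azeliragon and 2834 ± 160 CPM in DMSO, had a log2 fold change of -0.02 (95% interval -0.16 to 0.11). PPP1R14B, an inhibitor of the phosphatase that acts on myosin light chains, had 591 ± 96.2 CPM with Azeliragon and 641 ± 134 CPM in DMSO. None of the 16 was called by DESeq2, which called 9.57% of its genes, or by limma-voom, which called 6.39% of all genes. Without DMSO a 7 were called, 3 higher and 4 lower, where 23.7% of all genes were. With no filter on low counts 2 were called as higher and 1 as lower, where 5.78% of all genes were called. With either GC and length trend removed 1 was called as higher. Those fits called 9.45% of all genes with exon length and 11% with the longest transcript.

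TAGLN encodes transgelin, also called SM22, a protein that cross-links actin filaments, and lies at chr11:117199321-117204782 on the plus strand. It had 14.6, 14.6 and 15.0 CPM in Azeliragon a, b and c, against 19.0, 18.4 and 17.6 CPM in DMSO a, b and c. The groups did not overlap, and DMSO a, unlike for VIM, was the DMSO library farthest from the Azeliragon values. The means were 14.7 ± 0.25 CPM with Azeliragon and 18.3 ± 0.72 CPM in DMSO (SD, n = 3 each), a log2 fold change of -0.32 (SE 0.08, 95% interval -0.50 to -0.13; edgeR adjusted p = 0.0464). That is a 1.25-fold lower level, and the adjusted p lies close to the threshold. TAGLN did not pass with library totals (edgeR adjusted p = 0.0653), no filter (0.0683), limma-voom (0.0507) or the GC trend removed with that of exon length (0.0759) or longest transcript length (0.073). The adjusted p was 0.171, 0.181 and 0.155 without Azeliragon a, b and c, 0.157 without DMSO b, 0.0251 without DMSO a and 0.0465 without DMSO c (edgeR).

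TAGLN shares 446 exon bases with PCSK7, a gene on the opposite strand. The strand setting of the counting is not given in the sources used here, so reads of the shared bases cannot be told apart. PCSK7 averaged 38.0 ± 1.96 CPM with Azeliragon and 29.3 ± 4.29 CPM in DMSO (log2 fold change 0.37, edgeR adjusted p = 0.0533), with the opposite sign to TAGLN. Its part in the TAGLN counts was not tested.

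TAGLN2, the transgelin that most cell types use, was far more abundant. It had 588, 595 and 611 CPM in Azeliragon a, b and c, against 980, 1054 and 1127 CPM in DMSO a, b and c. All Azeliragon libraries were lower, by 1.76-fold on average (log2 fold change -0.82, SE 0.07, edgeR adjusted p = 2.91e-05), and the call held whichever library was left out. TAGLN thus made up 1.54 ± 0.01% of the counts per kb of the family with Azeliragon and 1.10 ± 0.12% in DMSO (SD, n = 3 each; exact two-sided permutation p = 0.1). Its share was higher although its own level was lower, because TAGLN2, the rest of the family but for under 0.1%, differed more.

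**Figure D2:**
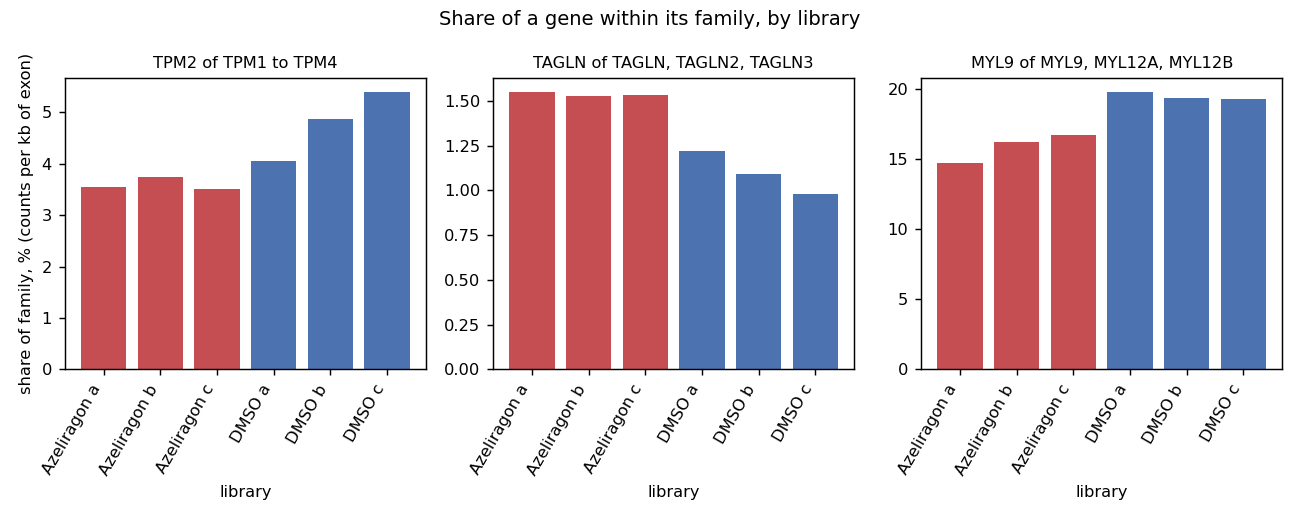
Share of TPM2, TAGLN and MYL9 in the counts per kilobase of exon of their gene family (percent, bars from 0) in each Azeliragon library (red, left) and DMSO library (blue, right). The shares of TPM2 and MYL9 are lower in every Azeliragon library, and that of TAGLN is higher in every one.

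CALD1 encodes caldesmon, which binds actin and holds back myosin, and lies at chr7:134744252-134970728 on the plus strand. CALD1 had 67.9, 66.3 and 72.9 CPM in Azeliragon a, b and c, against 67.2, 61.3 and 52.8 CPM in DMSO a, b and c. DMSO a lay within the Azeliragon range, and DMSO b and c lay below it. The log2 fold change was 0.19 (SE 0.09, 95% interval -0.00 to 0.38; edgeR adjusted p = 0.247). Without DMSO a it was 0.27 and passed (edgeR adjusted p = 0.00474), as the only one of the 10 that passed as higher.

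TPM1 and TPM2 encode tropomyosins, coiled-coil proteins that run along actin filaments and set which other proteins can bind. TPM1 lies at chr15:63042632-63071915 on the plus strand and TPM2 at chr9:35681992-35690121 on the minus strand. Since their values differed in direction, coding bases 61 to 180 of a transcript of each are shown, with capitals at the 39 positions where they differ (GENCODE 29, 5′ to 3′).
TPM1: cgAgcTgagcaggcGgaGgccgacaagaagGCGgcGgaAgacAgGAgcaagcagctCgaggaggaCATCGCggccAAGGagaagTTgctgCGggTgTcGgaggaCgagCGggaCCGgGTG
TPM2: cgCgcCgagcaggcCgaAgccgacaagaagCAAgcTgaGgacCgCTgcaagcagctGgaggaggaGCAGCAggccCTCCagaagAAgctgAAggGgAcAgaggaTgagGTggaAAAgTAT
The whole coding sequences of the transcripts shown, TPM1-201 and TPM2-201, were 75.8% identical, and the differences lay along the whole window. Other transcripts of either gene were not compared. Differences between the genes and differences in exon use between these transcripts therefore cannot be told apart here.

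TPM1 had 65.0, 64.0 and 65.0 CPM in Azeliragon a, b and c, against 60.6, 61 and 62.6 CPM in DMSO a, b and c. All Azeliragon libraries were higher, by a small margin, and TPM1 did not pass (log2 fold change 0.07, SE 0.06, 95% interval -0.06 to 0.21, edgeR adjusted p = 0.552). TPM1 shares 2070 exon bases with TPM1-AS and 691 with AC079328.2 on the other strand, which had 28 and 0 reads in all. As the strand setting is not given, reads of the shared bases are uncertain.

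TPM2 had 22.9, 23.7 and 21.2 CPM in Azeliragon a, b and c, against 24.3, 30.5 and 33.7 CPM in DMSO a, b and c. All Azeliragon libraries were lower, and DMSO a lay closer to them than to DMSO b and c. Its log2 fold change of -0.38 was close to that of MYL9, with a wider error (SE 0.11, 95% interval -0.63 to -0.14), and it missed the threshold (edgeR adjusted p = 0.0721). TPM2 passed with DESeq2 (adjusted p = 0.0274), which called 9.57% of its genes, and in edgeR with no filter on low counts (0.00424), which called 5.78%. It also passed in edgeR without DMSO a (log2 fold change -0.50, adjusted p = 8.02e-05).

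Of the counts per kb of the 4 tropomyosin genes, TPM2 held 3.56, 3.74 and 3.50% in Azeliragon a, b and c, against 4.06, 4.87 and 5.39% in DMSO a, b and c. The groups did not overlap, and the difference of the means was -1.17 percentage points (3.60 ± 0.13% with Azeliragon and 4.77 ± 0.67% in DMSO; SD, n = 3 each; exact two-sided permutation p = 0.1). TPM1 held 2.6 ± 0.09% with Azeliragon and 2.52 ± 0.05% in DMSO, and these groups overlapped (exact permutation p = 0.3). TPM3 and TPM4, the tropomyosins of most non-muscle cells, held 48.4 ± 1.12% and 45.4 ± 1.03% with Azeliragon, against 45.7 ± 0.53% and 47.1 ± 0.14% in DMSO. Neither passed the test in CPM (edgeR adjusted p = 0.317 for TPM3 and 0.869 for TPM4).

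ACTA2 encodes the smooth muscle actin that marks myofibroblasts, and lies at chr10:88935074-88991339 on the minus strand. It was barely detected, with 27, 26 and 33 reads in Azeliragon a, b and c and 48, 30 and 60 reads in DMSO a, b and c. Azeliragon c lay above DMSO b, so the groups overlapped. Azeliragon libraries held 38.4% of the reads (95% exact Clopper-Pearson interval 32.0 to 45.1%, counting error only), below the 49.3% of no difference. Counting error is not the whole spread, and between libraries the log2 fold change was -0.64 (SE 0.34, 95% interval -1.38 to 0.10; edgeR adjusted p = 0.324). ACTA2 shares 516 exon bases with ACTA2-AS1 and 380 with FAS on the other strand, both as weakly expressed as ACTA2, so its reads are uncertain. The abundant non-muscle actin ACTB averaged 7582 ± 179 CPM with Azeliragon and 7986 ± 454 CPM in DMSO and did not pass (edgeR adjusted p = 0.536).

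**Figure D3:**
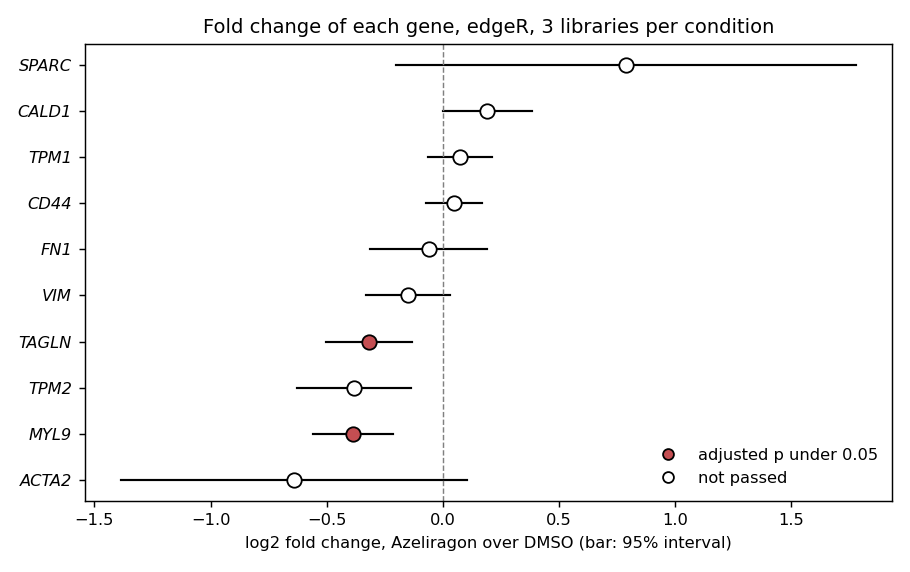
Log2 fold change of each of the 10 genes, Azeliragon over DMSO (horizontal axis), from edgeR with 3 libraries per condition, with 95% intervals as bars and genes that passed an adjusted p of 0.05 filled. MYL9 at -0.39 and TAGLN at -0.32 are filled, TPM2 at -0.38 is not, and the weakly expressed SPARC and ACTA2 have the widest intervals.

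The plot of fold changes puts the 10 estimates side by side. For 6 of the 10 the estimate was below 0, and the median over all tested genes was -0.004, so this count does not set the markers apart. For VIM, FN1, CD44, CALD1 and TPM1 the 95% interval stayed between -0.33 and 0.38 on the log2 scale, which limits the differences that these libraries leave room for. For SPARC and ACTA2 the intervals ran past 1 log2 unit.

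Actin filament and stress fibre genes other than the markers moved in both directions. Among 26 tested, 2 rose, 2 fell and 22 did not pass, and 4 had too few reads. FLNC, which encodes the actin cross-linker filamin C, averaged 828 ± 28.2 CPM with Azeliragon and 425 ± 79.8 CPM in DMSO and rose (log2 fold change 0.96, edgeR adjusted p = 0.000209). ACTN1, the cross-linker alpha-actinin 1, averaged 1191 ± 10.5 CPM with Azeliragon and 962 ± 21.3 CPM in DMSO and rose by 0.31 on the log2 scale. Those that fell were TAGLN2 and PDLIM7, a scaffold protein of actin fibres (log2 fold change -0.33). TMSB10, which binds free actin, did not pass at 1427 ± 33.2 CPM with Azeliragon and 1587 ± 285 CPM in DMSO. With DMSO b or Azeliragon c left out ACTN1 did not pass (edgeR adjusted p up to 0.0621), nor PDLIM7 without DMSO b or any one Azeliragon library (up to 0.121). Without DMSO a 16 of 27 tested passed, 10 higher and 6 lower, where 23.7% of all genes did. Without DMSO b or Azeliragon c 1 rose and 1 fell, in fits that called 2.86% and 2.7% of all genes.

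The list of SRF, MRTF and classic targets left out the 10 markers, MYL9 and TAGLN among them, and gave 1 called gene among 22 tested. EGR1, an immediate early gene, averaged 186 ± 14.7 CPM with Azeliragon and 255 ± 5.29 CPM in DMSO and fell (log2 fold change -0.45, edgeR adjusted p = 0.00197). SRF itself averaged 234 CPM with Azeliragon and 202 CPM in DMSO and did not pass (log2 fold change 0.21, edgeR adjusted p = 0.0727). Its targets ACTB and ACTG1, at log2 fold changes of -0.07 and -0.01, did not pass either. No read of MYOCD, the muscle cofactor of SRF, was counted. Without DMSO a 6 of the 22 passed, 3 in each direction, a share close to the 23.7% of all genes that passed in that fit. Without DMSO c or without Azeliragon c 2 fell, in fits that called 4.94% and 2.7% of all genes.

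**Figure D4:**
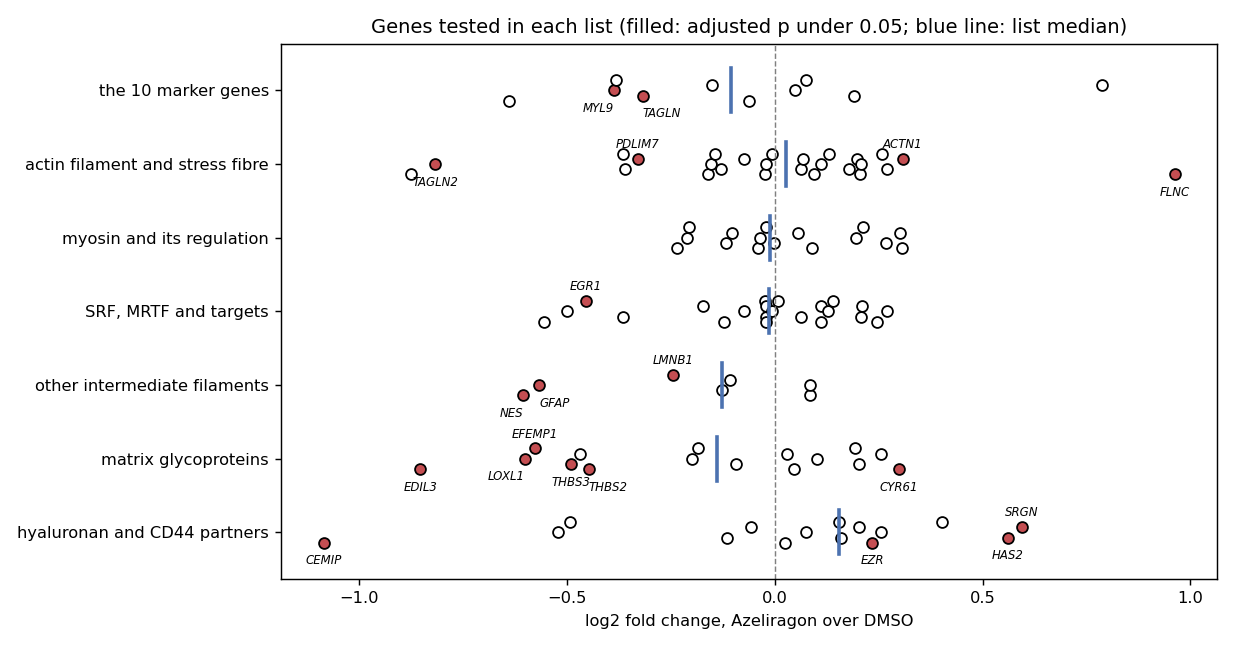
Log2 fold change, Azeliragon over DMSO (horizontal axis), of every tested gene of the 10 markers and of 6 lists of related genes, with genes that passed an adjusted p of 0.05 filled and named and the median of each list as a blue line. Called genes lie on both sides of 0 in the actin, matrix and hyaluronan lists, and the myosin list holds none.

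The medians of the 6 lists lay between -0.14 for the matrix glycoproteins and 0.15 for the hyaluronan genes. The share called was 37.5% of matrix glycoprotein genes, 42.9% of the other intermediate filament genes, 26.7% of hyaluronan genes, 15.4% of actin genes, 4.55% of the SRF list and 0% of the myosin list, beside 6.27% of all tested genes. The lists are short and some share genes, and they were chosen with earlier results of these data known. None of the 6 lists holds any of the 10 markers.

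How many of the markers passed depended on single libraries. None passed in edgeR without DMSO b or any one Azeliragon library, and 2 passed without DMSO c. The share of all genes that passed also depended on the library left out. It was 2.86% without DMSO b, 2.68%, 3.01% and 2.7% without Azeliragon a, b and c, and 4.94% without DMSO c. Without DMSO a 5 of the 10 passed, VIM, TAGLN, MYL9 and TPM2 as lower and CALD1 as higher, while 23.7% of 16508 genes passed in that fit. For 5 of the 10 genes DMSO a was the DMSO library nearest to the Azeliragon mean, and it was DMSO b for 2 and DMSO c for 3. All 10 genes had a smaller coefficient of variation with Azeliragon than in DMSO. The same held over all tested genes together, with biological coefficients of variation of 5.64% with Azeliragon and 12.5% in DMSO. No share over all tested genes is given for the count of smaller coefficients of variation or for that of the nearest DMSO library. Neither count is therefore read as a result about the markers.

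**Figure D5:**
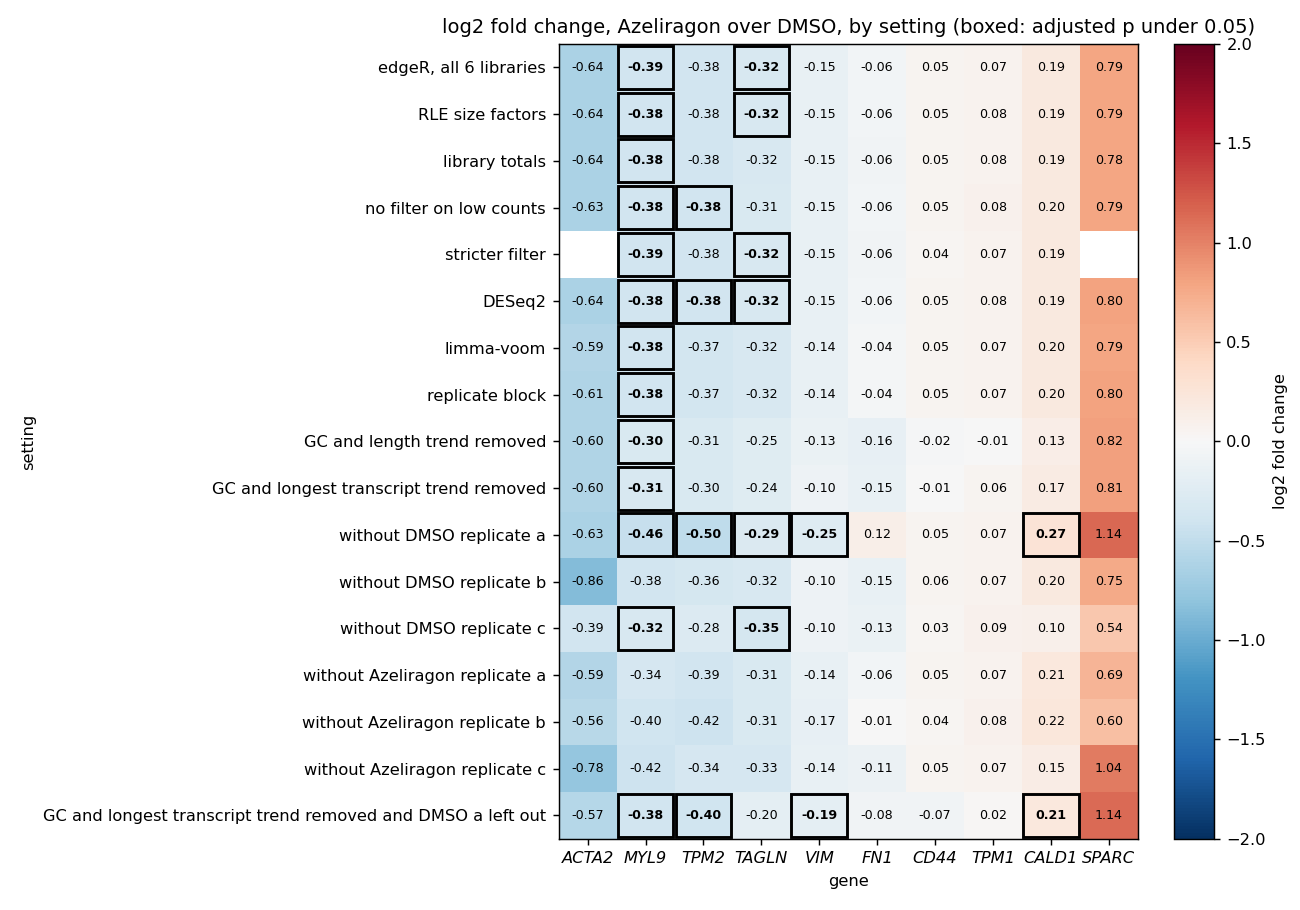
Log2 fold change, Azeliragon over DMSO, of the 10 genes (columns) under each way of processing the counts (rows), on a blue to red scale, with boxes where the adjusted p was under 0.05 and blanks where a gene was filtered out. The column of MYL9 is boxed in 12 alternative settings and that of TAGLN in 5, and VIM and CALD1 are boxed only in the settings without DMSO a.

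The plot of fold changes by setting shows that MYL9, TAGLN, TPM2, VIM and ACTA2 were below 0 and CALD1 and SPARC above 0 in every setting in which they were tested. CD44 changed sign in 3 settings and FN1 and TPM1 in 1 each, and none of these 3 genes passed in any setting. MYL9 was the marker called most often, in 12 of 16 alternatives.

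The markers of the cell line were checked beside those of other cell types. The 6 mesenchymal line markers summed to between 5469 and 5517 CPM with Azeliragon and between 5120 and 5258 CPM in DMSO, with SPARC alone averaging under 1 CPM. These markers moved in both directions. AXL averaged 1677 CPM with Azeliragon and 1403 CPM in DMSO and passed as higher. VIM, the most abundant of them, was lower, at 1834 CPM with Azeliragon and 2036 CPM in DMSO, and did not pass. Of 7 smooth muscle and myofibroblast markers, 5 averaged under 1 CPM in both conditions, DES and MYOCD among them with 0 reads. Their sum was 2.19 to 3.14 CPM with Azeliragon and 3.27 to 3.32 CPM in DMSO. MYH11, the most abundant of them, was higher with Azeliragon, against the direction of the sum, and did not pass. ACTA2 is in this list and is also one of the 10 markers, and it was lower with Azeliragon and did not pass. The sum is therefore not separate from the marker results. Fibroblast markers summed to 6.05 to 7.34 CPM with Azeliragon and 9.87 to 11.9 CPM in DMSO, with 2 of 6 at 0 reads and 5 averaging under 1 CPM in both conditions. Most of that sum was PDGFRB, which averaged 5.87 CPM with Azeliragon and 9.85 CPM in DMSO and passed as lower. LUM went the other way, at 0.763 CPM with Azeliragon and 0.640 CPM in DMSO, and did not pass. Epithelial and luminal markers summed to 135 to 147 CPM with Azeliragon and 172 to 188 CPM in DMSO, mostly from CLDN4 and GATA3, with PGR at 0 reads and CDH1 at 1 read with Azeliragon and 0 in DMSO. CLDN4 averaged 110 CPM with Azeliragon and 143 CPM in DMSO and passed as lower, whereas GATA3 did not pass. ESR1 had more reads with Azeliragon, 33 against 5 in DMSO, too few to be tested. These sums moved with the treatment, and their part in the marker results was not tested. Endothelial and leukocyte markers stayed under 1 CPM in sum.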

How the data were processed

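The authors deposited 1 table of raw counts for all 6 libraries. Per the submitters' processing notes, which give no roles, the build was GRCh38 and the tools were featureCounts 1.5.0-p3, STAR 2.6.1d and limma. Annotation, strandedness and the handling of multiply matching reads: not given in the sources used here.

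Rows for the 10 genes were taken by name. Names, exons and lengths came from GENCODE 29. Of 58735 rows, 2 whose names had become numbers were dropped (0% of counts). Every pair of libraries of a condition differed by more than sampling noise (chi-square per degree of freedom at least 4.57). Genes were kept by filterByExpr, scaled by TMM and tested with glmQLFit and glmQLFTest of edgeR 4.0.16 (R 4.3.3), treatment as the only term, with Benjamini-Hochberg adjustment over 16081 genes and a threshold of 0.05. Levels are TMM-scaled CPM, and 1 read is 0.0226 to 0.0241 CPM. The test was checked on simulated counts, where it recovered 40% of 1.3-fold, 80% of 1.5-fold, 94% of 2-fold and 100% of 4-fold changes. Of its 163 calls 6 were false. A gene that did not pass may therefore still differ by 1.3-fold or more, since some 1.5-fold and 2-fold changes were missed too. For the weakly expressed SPARC and ACTA2 the edgeR intervals ran past 1 log2 unit, so larger differences are not excluded there. Family shares were compared with an exact permutation test.

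Alternatives were DESeq2 1.42.0, limma-voom 3.58.1, library totals or RLE size factors in place of TMM, no filter, a filter at a mean count of 50 with 1 CPM in 3 libraries, a replicate block, removal of GC and length trends, and each library left out in turn. Trends and levels by longest transcript were added after seeing the data.

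The members and lists were chosen with earlier results of these data known. From each other list the text names the called genes (at most 5, largest change first) and the 2 most abundant per kb that were not called. It also names LMNA, SNAI1 and AGER. SRF, MYOCD, CYR61, PCSK7 and cell type markers named singly were added after their values were seen. Read-based intervals cover counting error alone, as reads are not independent molecules.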

Additional observations from a re-analysis of the deposited data

How the results depend on the processing

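Of 10 markers 2 passed in the edgeR test. The count was 1 with library totals, with limma-voom, with a replicate block, and with the GC trend removed together with that of exon or of longest transcript length, and 4 with the longest transcript trend removed and DMSO a left out. It lay between 0 and 5 when 1 library was left out. RLE size factors and the stricter filter gave the same 2, no filter gave MYL9 and TPM2, and DESeq2 gave 3. Across all genes 1009 passed, 1685 with no filter, 1519 with GC and exon length trends removed, 1763 with the longest transcript in their place, 3722 with that and DMSO a left out, and 445 to 3916 with 1 library left out. DESeq2 called 1420 genes and the replicate block 908. The letters did not pair the libraries: same-lettered deviations correlated at 0.03, 0.02 and -0.04, and 2 libraries correlated best with their own letter. Under the block TAGLN (edgeR adjusted p = 0.0909) lost its call and no other marker changed side, and of the other genes named as called LMNB1, THBS3 and EZR lost theirs. THBS3 also lost its call with library totals and limma-voom. Without division by length the share difference of TPM2 was -0.47 and that of TAGLN 0.68 percentage points, and by longest transcript that of MYL9 was -2.27. The causes of these shifts were not tested. Depth limits SPARC and ACTA2, which the stricter filter removed.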
